A study of Mus musculus with 12 samples.

Results

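The 6 libraries described here were made from the cerebral cortex of mouse embryos. In these embryos the epidermal growth factor receptor gene Egfr was targeted for knockout in neural progenitors. The 6 libraries are all of the knockout libraries among 12 in the series. They were grouped by a measured value, the level of Nr2f1, and not by the cortical part named in their titles. Within each pair of libraries that follow each other in the order of deposit, the library with more Nr2f1 was called higher (3 libraries) and its partner lower (3 libraries). The labels do not say that neighbouring libraries belong together, and each pair joins libraries with different embryo numbers in their titles.

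RNA came from E17.5 embryos, from the cortex dissected together with the hippocampal formation and cut into rostral and caudal parts. In knockout embryos, both alleles of Egfr (2 of 2) were floxed and Cre was expressed from the Nestin promoter, which is active in neural progenitors. Control embryos carried 1 floxed and 1 intact allele of Egfr, and whether they carried Cre is not given in the sources used here. The titles put 3 libraries in each of 4 groups (each genotype with a rostral and a caudal group), with embryo numbers 5, 2 and 7 for the knockout libraries and 1, 3 and 9 for the control libraries. Pair 1 joined the libraries titled knockout rostral 5 (lower) and knockout rostral 2 (higher). Pair 2 joined knockout rostral 7 (lower) and knockout caudal 5 (higher), and pair 3 joined knockout caudal 2 (lower) and knockout caudal 7 (higher). The titles also carry a number before the embryo number, 4858 or 4692, whose meaning is not given in the sources used here. It differs between the 2 libraries of pairs 1 and 2 and is 4692 for both libraries of pair 3. The control libraries were paired and ranked in the same way, as pair 4 (rostral 1 lower, rostral 3 higher), pair 5 (rostral 9 lower, caudal 1 higher) and pair 6 (caudal 3 lower, caudal 9 higher).

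Nr2f1 encodes a nuclear receptor that is expressed in a gradient across the developing cortex, highest in caudal and lateral regions, where it acts in the choice of sensory over frontal area identity. Transcription factors such as Emx2, Lhx2 and the Dmrt family are likewise stronger toward the caudal and medial cortex, while the Sp8 and Etv factors, which respond to fibroblast growth factors, are stronger at the rostral pole. At late gestation these gradients lie on top of other regional contrasts, since the caudal tissue dissected here can hold hippocampus and cortical hem and the rostral tissue can hold more of the ventral forebrain border.

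Nr2f1 (chromosome 13, 78337092 to 78347876, GRCm39) was at 97.1, 205 and 71.3 CPM (counts scaled to a library total of 1e+06) in the lower libraries of pairs 1, 2 and 3 and at 340, 248 and 348 CPM in their higher partners. The ratio within the pair was 3.50 in pair 1, 1.21 in pair 2 and 4.88 in pair 3. In control pairs 4, 5 and 6 it was 4.41, 6.77 and 6.37. These values chose the groups, so they are given as a description and support nothing. The closest call was in pair 2, whose 2 libraries lay between the high and the low values of the other pairs. The rank by Nr2f1 was that of the titled part, caudal higher and rostral lower, in 4 of the 6 knockout libraries, and pairs 1 and 3 each joined 2 libraries titled with the same part.

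Egfr was at 3.60 to 7.33 CPM in the knockout libraries and 19.2 to 41.6 CPM in the control libraries, so the genotype labels were borne out in each of the 12. Gh, the growth hormone gene, was at 6.06 to 7.87 CPM in the knockout libraries and 0 CPM in the control libraries. What this difference between the genotypes comes from was not tested. Total counts ran from 25604896 to 30383672 in the knockout libraries and from 25223733 to 30383672 over all 12. Mitochondrially encoded genes took 7.25% of the counts in the lower library of pair 2, 4.77% in the higher library of pair 2 and between 2.10% and 2.93% in the other 4 knockout libraries. Pair 1 held Y-linked transcripts in both libraries (152 and 162 CPM over 4 Y genes) and almost no Xist, and both libraries of pairs 2 and 3 held Xist. Both control libraries of pair 4 held Xist together with Y-linked transcripts. Both of pair 5 held Y-linked transcripts and no Xist. Both of pair 6 held Xist, with at most 1.73 CPM over the 4 Y genes. The 2 libraries of each neighbour pair thus held the same kind of sex-linked transcripts. By title, embryo 5 joined a library with Y-linked transcripts (rostral 5) and a library with Xist (caudal 5, 324 CPM). Embryo 2 did likewise (rostral 2 with Y-linked transcripts, caudal 2 with Xist at 426 CPM). In 2 of the 3 titled knockout embryos the sex-linked transcripts of the parts thus did not match. They did not match in the 3 titled control embryos either. Control embryo 9 joined a library with Y-linked transcripts (rostral 9) and a library with Xist (caudal 9, 253 CPM). Control embryos 1 and 3 each joined a library of pair 4 to a library with Y-linked transcripts and no Xist (caudal 1) or with Xist and almost no Y-linked transcripts (caudal 3).

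Counts of all genes were first compared within the pairs with edgeR's quasi-likelihood test, in a model with the pair as a block. No gene was called at a Benjamini-Hochberg adjusted p under 0.05 (0% of 17032 genes, Nr2f1 left out), and the smallest adjusted p was 0.133. At an unadjusted p under 0.05 there were 998 genes higher (5.86%) and 1231 lower (7.23%) in the higher libraries. DESeq2's Wald test on the same counts, with Nr2f1 not left out, called 387 genes (182 higher and 205 lower), and limma-voom called 0. Because the groups were ranked by a gene measured in the same libraries, these p-values describe how other genes went with Nr2f1 and are no test of the rostral or the caudal part. As background for the counts below, 19% of genes were higher in the higher library of all 3 pairs and 15.3% were lower in all 3. For 5.14% of genes the 3 higher libraries lay above all 3 lower ones, and for 4.85% they lay below.

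Pair 2 differed from the others. Over 11149 autosomal genes at a mean of at least 5 CPM, the log2 differences of pairs 1 and 3 correlated with a Pearson r of 0.57, those of pairs 2 and 3 with 0.49, and those of pairs 1 and 2 with 0.02. These are descriptions across genes, which are not independent. Its 2 libraries were also the closest of all 15 pairings of knockout libraries, with a root mean square log2 difference of 0.22 against 0.29 to 0.58 for the others. Without pair 2, 4 libraries and 1 residual degree of freedom remained, and edgeR called 176 genes higher (1.03%) and 127 lower (0.746%) of 17022. At an unadjusted p under 0.05 the shares were then 9.45% higher and 8.85% lower. Leaving out pair 1 gave 181 called genes and leaving out pair 3 gave 0, with Nr2f1 not left out of these 2 counts.

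The comparison that the titles give, knockout caudal minus knockout rostral, called 0 genes (0%) with edgeR, with 1266 at an unadjusted p under 0.05, and 72 with DESeq2. Nr2f1 itself had a titled log2 fold change of 0.07 ± 0.62 (SE, n = 3 against 3). The control libraries, which took no part in ranking the knockout ones, gave far more calls when ranked by their own Nr2f1. edgeR called 1173 genes higher (6.88%) and 1189 lower (6.97%) of 17059 there. The total of 2363, Nr2f1 included, was 531 without control pair 5, 404 with no pair block and 133 with the titled embryo number as a block in place of the pair. The control calls given below for single lists thus rest on the block by neighbour pair, which the labels do not give.

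Genes of the caudal cortex were mostly higher together with Nr2f1. All 10 listed genes had a positive fold change, with a median log2 fold change of 0.90 against 0.0036 over all genes tested, and 5 of 10 were higher in all 3 knockout pairs. None was called in all 3 pairs together. Without pair 2 the median was 1.12 and 3 of 10 were called higher. In the control libraries all 10 were higher in all 3 pairs, 7 were called, and the median was 0.63.

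Bhlhe22 (chromosome 3, 18108338 to 18111681), which encodes a transcription factor of area identity in postmitotic cortical neurons, was at 124, 127 and 107 CPM in the lower libraries of pairs 1, 2 and 3 and at 260, 179 and 246 CPM in the higher ones. Every higher library lay above every lower one. Its log2 fold change was 0.92 ± 0.16 (SE, n = 3 pairs; edgeR adjusted p = 0.176), 1.14 without pair 2 (adjusted p = 0.027) and 0.69 ± 0.11 in control libraries (adjusted p = 0.0134). Emx2, a transcription factor that promotes caudal and medial cortical fates, was at 41.0, 32.7 and 38.4 CPM in the lower libraries and 47.5, 59.0 and 56.5 CPM in the higher ones. Here pair 2 had the widest gap, and the groups did not overlap. Lhx2, a selector gene of the cortex, was at 279, 208 and 246 CPM against 294, 333 and 382 CPM, also without overlap.

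Fgfr3, a fibroblast growth factor receptor stronger in caudal progenitors, was at 17.8, 34.7 and 12.9 CPM in the lower libraries and 50.5, 33.8 and 46.6 CPM in the higher ones. It was thus level in pair 2 and higher in the other pairs, with a log2 fold change of 1.68 and an adjusted p of 0.027 by edgeR without pair 2. Nr2f2, the closest relative of Nr2f1, went the opposite way in pair 2: it was at 14.5, 100 and 12.8 CPM in the lower libraries and 128, 42.0 and 55.2 CPM in the higher ones. In the controls Nr2f2 rose by 3.47 on the log2 scale (edgeR adjusted p = 0.000114). The difference between the genotypes for Nr2f2, -2.12 on the log2 scale, had an edgeR adjusted p of 0.998.

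Among the 15 listed rostral genes, 13 were tested (Fgf8 and Fgf17 were too low). Their median log2 fold change was -0.20, 5 of 13 were lower in all 3 pairs and none was higher in all 3. The median was -0.23 without pair 2, where 3 of 13 were called lower. The members that were lower include Cbln2, a synapse organiser enriched in frontal cortex, at 12.05, 8.85 and 8.40 CPM in the lower libraries and 3.71, 4.21 and 3.20 CPM in the higher ones. The 2 groups were far apart, with a log2 fold change of -1.39 ± 0.16 (edgeR adjusted p = 0.133), and in controls it fell by 1.17 (adjusted p = 0.000443). Etv5, a target of fibroblast growth factor signalling, was at 94.7, 51.4 and 73.0 CPM in the lower libraries and at 39.9, 42.6 and 40.4 CPM in the higher ones. The higher libraries were close to each other and the lower ones were spread. Sp8 had a log2 fold change of -1.25 ± 0.33, and Pax6 and Cdh8, other listed rostral genes, had -0.20 ± 0.20 and -0.04 ± 0.15. In the controls 3 of the 13 were called lower and the median was -0.28.

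**Figure D1:**
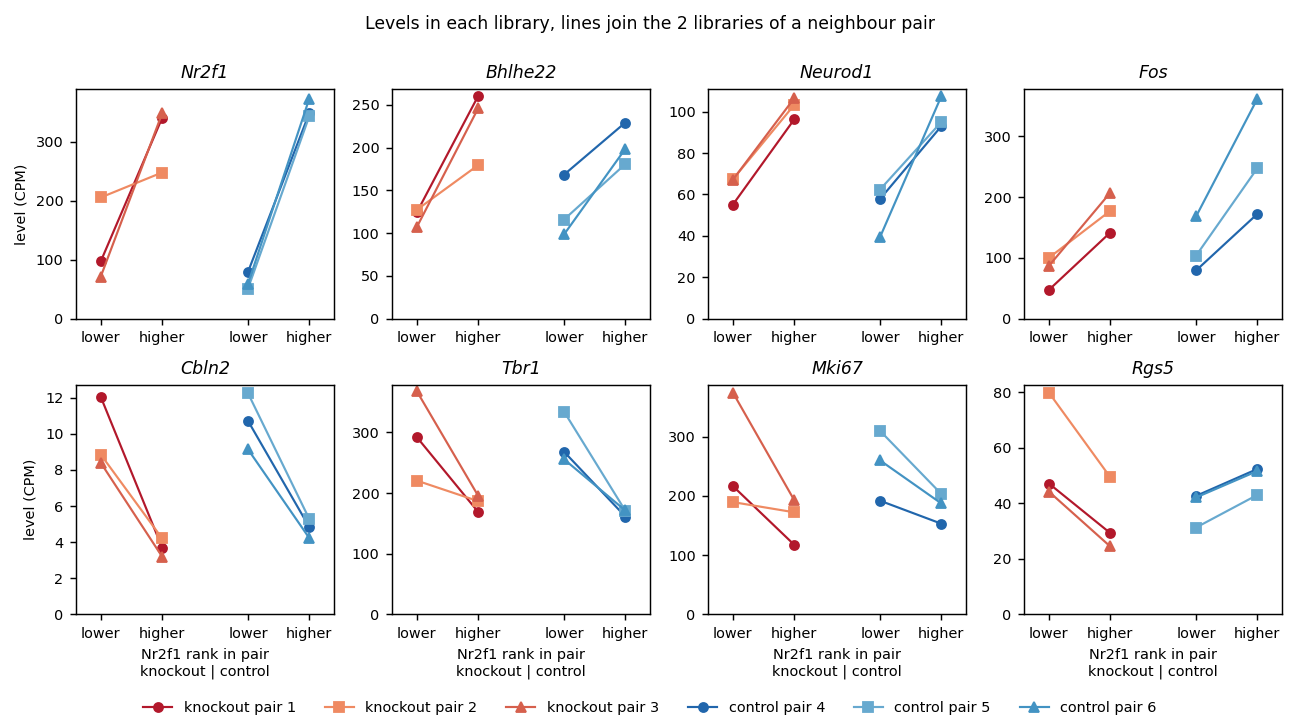
Levels of 8 genes in CPM (vertical axes from 0) in the lower and the higher library of each pair, knockout in red shades and control in blue shades. Points are single libraries and lines join a pair. Nr2f1, which set the order, goes only from 205 to 248 CPM in knockout pair 2, while Rgs5 goes down in the 3 knockout pairs and up in the 3 control pairs.

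Hippocampal and cortical hem genes were higher in most higher libraries. The hippocampal list (9 of 9 tested) had a median log2 fold change of 0.69, with 6 of 9 higher in all 3 pairs. Without pair 2 the median was 1.12 and 1 of 9 was called higher. In controls it was 0.90 and 5 were called. Neurod1, a factor of dentate granule cells and of newborn excitatory neurons, was at 55.1, 67.3 and 67.1 CPM in the lower libraries and 96.3, 103 and 106 CPM in the higher ones. Its gap was alike in the 3 pairs, at a log2 fold change of 0.69 ± 0.07 (edgeR adjusted p = 0.133). Prox1, the dentate granule cell factor, was at 23.7, 43.5 and 31.9 CPM against 73.0, 56.7 and 50.7 CPM, without overlap. Lef1, the Wnt effector needed for the hippocampus, had a log2 fold change of 1.31 ± 0.22 and Fzd9 1.14 ± 0.19.

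The cortical hem is the Wnt-secreting edge of the cortex beside the hippocampus. Of 11 hem genes 9 were tested, all 9 had a positive fold change, and 5 were higher in all 3 pairs. In none of the 9 were the groups free of overlap. The list median was 2.34, 0.94 and 0.19 in pairs 1, 2 and 3. Only 6 could be tested without pair 2, where the median was 1.77 and 1 was called higher. Wnt8b was at 0.04, 0.96 and 0.04 CPM in the lower libraries and 7.03, 5.68 and 0.96 CPM in the higher ones. The order was the same in each pair, but the higher library of pair 3 was at the level of the lower one of pair 2, so the groups overlapped. Cajal-Retzius cells, the Reelin-secreting neurons that arise in part from the hem, showed what pair 2 did to the average. Reln was at 201, 144 and 49.2 CPM in the lower libraries and at 516, 103 and 158 CPM in the higher ones, so that it was higher in pairs 1 and 3 and lower in pair 2. The list median over 10 genes was 1.49 in pair 1, -0.30 in pair 2 and 1.23 in pair 3. The fitted list median was 0.92 over the 3 pairs and 1.57 without pair 2. Without pair 2, 6 of 10 were called higher (Nhlh2, Lhx5, Ndnf, Lhx1, Trp73 and Reln).

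Neuronal layer genes were split. Among 12 deep layer genes, 6 were lower in all 3 pairs and 3 were higher in all 3. Tbr1, the factor of corticothalamic neurons of layer 6, was at 292, 220 and 368 CPM in the lower libraries and 169, 187 and 195 CPM in the higher ones. No lower library came down to the level of a higher one, and the log2 fold change was -0.65 ± 0.13 (edgeR adjusted p = 0.205), against -0.77 ± 0.08 in controls (adjusted p = 0.000897). Fezf2, the selector of subcerebral projection neurons, went the other way, from 26.8, 22.8 and 13.7 CPM to 54.9, 36.3 and 41.3 CPM. Crym, a thyroid hormone binding protein, was at 3.99, 15.99 and 1.95 CPM in the lower libraries and 59.5, 19.5 and 18.7 CPM in the higher ones. Rorb, the layer 4 gene of sensory cortex, was at 19.04, 14.7 and 21.6 CPM against 10.4, 9.35 and 9.92 CPM, a log2 fold change of -0.89 ± 0.12. The 11 upper layer genes had a median of -0.14 (-0.27 without pair 2), with 1 (Rorb) lower and 1 (Mef2c) higher in all 3 pairs.

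Ventral forebrain and striatal genes were lower in the higher libraries, and most of the size came from pair 3. All 13 tested genes of 14 had a negative fold change, 9 were lower in all 3 pairs, and the list median was -0.68 in pair 1, -0.73 in pair 2 and -3.20 in pair 3. Isl1, a factor of striatal projection neurons, was at 1.03, 12.9 and 13.8 CPM in the lower libraries and at 0.39, 3.75 and 0.08 CPM in the higher ones. The summed level of the list was 49.2, 146 and 203 CPM in the lower libraries and 28.3, 86.1 and 20.97 CPM in the higher ones. The fitted list median was -1.53 over the 3 pairs and -1.97 without pair 2, where 0 of 13 were called. In controls 9 of 13 were called lower. In bulk tissue fewer cells of a type and less RNA per cell cannot be told apart, and how much tissue of each border was dissected with each library was not tested.

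**Figure D2:**
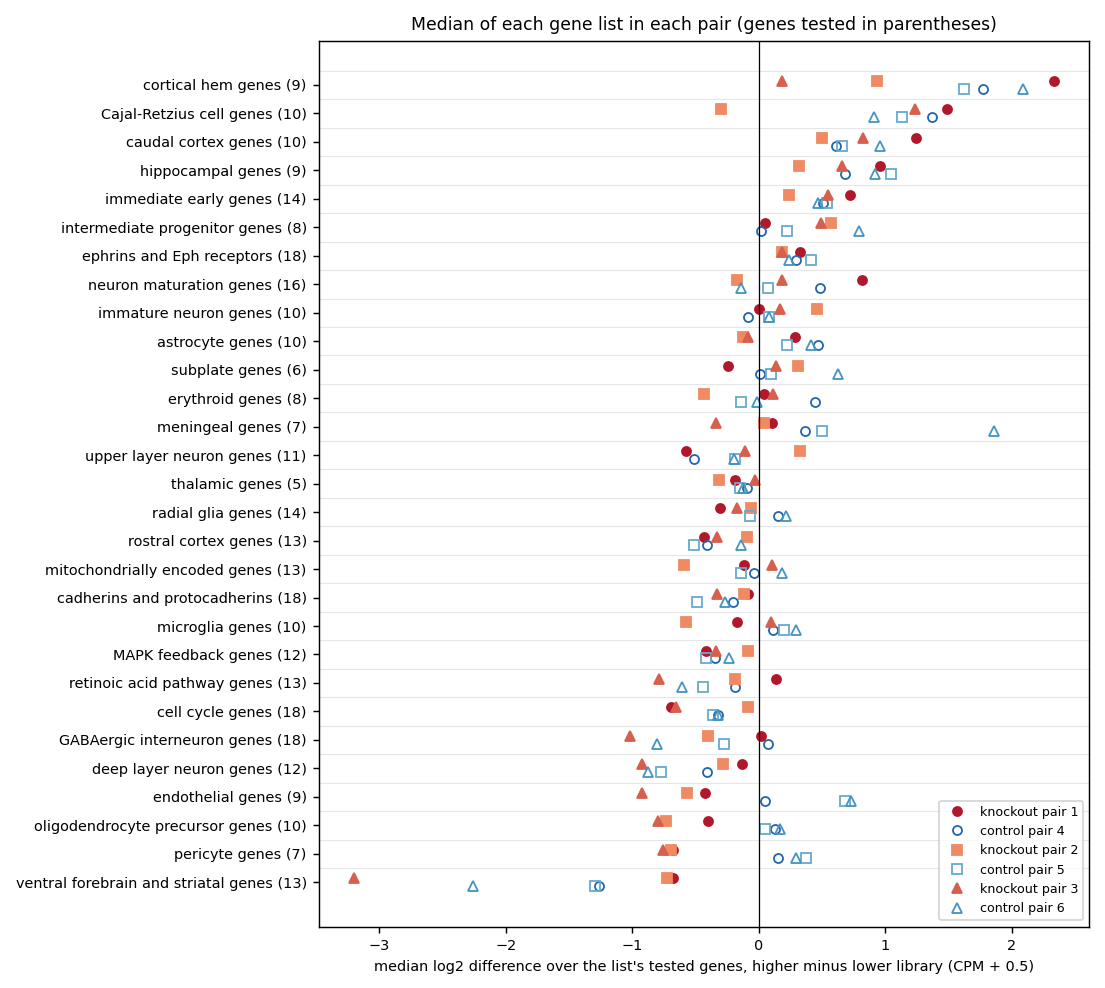
Median log2 difference, higher minus lower library, over the tested genes of each list with at least 5 of them (horizontal axis, CPM + 0.5), with filled red marks for the 3 knockout pairs and open blue marks for the 3 control pairs. Lists are ordered by the knockout fold change. Endothelial, pericyte and oligodendrocyte precursor medians are negative in each knockout pair and positive in each control pair, and the Cajal-Retzius median of knockout pair 2 is -0.30.

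Cell cycle genes were lower in the higher libraries. Of 18 genes, 17 were lower in all 3 pairs and at an unadjusted p under 0.05. None was called, with the 18 log2 fold changes between -0.66 and -0.17 and a median of -0.50. Pair 2 contributed little, with a median of -0.08 against -0.69 in pair 1 and -0.66 in pair 3, and without it 11 of 18 were called lower. In the controls all 18 were lower in all 3 pairs, 16 were called, and the median was -0.39.

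Mki67, a marker of cycling cells, was at 217, 190 and 374 CPM in the lower libraries and at 118, 172 and 193 CPM in the higher ones. Its 2 groups overlapped only through the lower library of pair 2 and the higher library of pair 3. Top2a, the topoisomerase that untangles chromosomes for mitosis, was at 252, 258 and 456 CPM against 144, 246 and 233 CPM. Cdk1, the kinase that drives entry into mitosis, was at 43.1, 53.5 and 55.9 CPM against 26.3, 48.2 and 36.9 CPM. Mcm6, a subunit of the replicative helicase, was level in pair 2 (109 CPM in both libraries) and at 107 and 141 CPM against 78.8 and 110 CPM in pairs 1 and 3.

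The 250 bases before the start of 4 of these genes are shown, chosen after their values were seen, to display the promoter elements of cell cycle genes. Sequences are from RefSeq on GRCm38.p6, a different build from that of the count files, and read 5′ to 3′ on the gene's strand. Capitals mark matches on either strand to the CCAAT box (CCAAT, or ATTGG on the other strand), to the cell cycle genes homology region (TTTGAA, or TTCAAA) and to E2F sites (TTTCCCGC, TTTCGCGC, TTTGCCGC or TTTGGCGC, and their reverse complements), with overlapping matches allowed.
Top2a, chr11:99024190-99024439, minus strand: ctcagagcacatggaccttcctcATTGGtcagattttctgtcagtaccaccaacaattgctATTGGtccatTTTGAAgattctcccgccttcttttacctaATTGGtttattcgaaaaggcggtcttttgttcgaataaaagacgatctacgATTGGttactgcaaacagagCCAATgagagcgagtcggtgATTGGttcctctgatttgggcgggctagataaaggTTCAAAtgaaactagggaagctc
Cdk1, chr10:69352913-69353162, minus strand: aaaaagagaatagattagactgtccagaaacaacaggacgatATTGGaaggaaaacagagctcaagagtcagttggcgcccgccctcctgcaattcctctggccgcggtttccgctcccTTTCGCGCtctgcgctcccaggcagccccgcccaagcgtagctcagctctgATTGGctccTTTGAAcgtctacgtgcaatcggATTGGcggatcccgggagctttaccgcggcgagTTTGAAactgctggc
Ccnb2, chr9:70421555-70421804, minus strand: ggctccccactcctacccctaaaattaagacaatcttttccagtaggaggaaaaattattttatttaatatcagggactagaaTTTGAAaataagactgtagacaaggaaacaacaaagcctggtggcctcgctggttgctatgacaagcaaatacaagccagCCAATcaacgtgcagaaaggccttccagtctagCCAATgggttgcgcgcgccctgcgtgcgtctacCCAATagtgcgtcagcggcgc
Mcm6, chr1:128359706-128359955, minus strand: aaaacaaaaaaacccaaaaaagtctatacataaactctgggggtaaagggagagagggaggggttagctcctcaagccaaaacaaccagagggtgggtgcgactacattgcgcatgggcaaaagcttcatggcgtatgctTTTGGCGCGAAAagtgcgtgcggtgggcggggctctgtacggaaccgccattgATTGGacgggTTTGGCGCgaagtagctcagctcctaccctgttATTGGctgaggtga

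A CCAAT box was found in 15 of 16 promoters of the listed genes that had an entry (15 of 18 genes matched, Mcm7 with 2 promoters), which is 93.8%, against 33.9% of all 32851 promoters of that length. The homology region was found in 5 of 16 (31.2%), against 15.99% of all promoters, and an E2F site in 4 of 16 (25%), against 1.86%. The genes were listed as cell cycle genes, so these shares are traits of the list and no result of these libraries. A match is a description of letters, and no binding was measured here. The promoters of mitotic genes Top2a, Cdk1 and Ccnb2 carry several CCAAT boxes, and that of Mcm6 holds 3 overlapping or separate E2F matches and no homology region.

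Progenitor classes did not all go with the cell cycle genes. Of 14 radial glia genes 7 were lower in all 3 pairs and 2 higher, with a median of -0.20. Of 8 intermediate progenitor genes 5 were higher in all 3 pairs and none was lower in all 3, with a median of 0.30. Neurod4, a factor of committed neuronal precursors, was at 4.91, 5.96 and 8.48 CPM in the lower libraries and 7.80, 15.2 and 16.2 CPM in the higher ones. Eomes, the defining factor of intermediate progenitors, was at 315, 212 and 318 CPM against 197, 352 and 386 CPM. It was lower in pair 1 and higher in the other 2 pairs.

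Genes that respond to neuronal activity and growth factors within minutes, the immediate early genes, were higher in the higher libraries. Of 15 listed genes 14 were tested, 11 were higher in all 3 pairs and none was lower in all 3, and in 6 of 14 the groups did not overlap. The list median was 0.48, or 0.60 without pair 2, where 3 of 14 were called higher. Fos (chromosome 12, 85520664 to 85524047) was at 47.2, 100 and 86.7 CPM in the lower libraries and at 142, 177 and 207 CPM in the higher ones. Its log2 fold change was 1.22 ± 0.16 (edgeR adjusted p = 0.14), and in the controls it rose by 1.15 ± 0.05 (adjusted p = 1.21e-05). Egr1 was at 164, 177 and 223 CPM against 240, 241 and 310 CPM in knockout, a log2 fold change of 0.49 ± 0.07. In control pairs it was at 286, 332 and 467 CPM in the lower libraries and 295, 360 and 428 CPM in the higher ones, a fold change of 0.00 ± 0.06. The difference between the genotypes, 0.49 ± 0.09, had an adjusted p of 0.208 in edgeR's interaction test.

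Feedback genes of the MAP kinase pathway, which lies downstream of Egfr and of fibroblast growth factor receptors, were mostly lower. Of 12 genes 8 were lower in all 3 pairs and 1 was higher in all 3, with a median of -0.35. The median was -0.41 without pair 2, where 1 of 12 was called lower. Spry4, an inhibitor of receptor tyrosine kinase signalling, was at 9.48, 6.96 and 7.98 CPM in the lower libraries and 4.37, 4.16 and 3.12 CPM in the higher ones, with a log2 fold change of -1.07 ± 0.16. Spry1, of the same family, was the member that was higher, at 8.97, 9.64 and 6.68 CPM against 12.3, 11.5 and 11.7 CPM. In controls 9 of 12 were called lower and 1 higher. Of 12 members, 1 had an unadjusted p under 0.05 in the interaction test.

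Ephrins and their Eph receptors, guidance molecules graded across cortical areas, were higher in 7 of 18 cases in all 3 pairs and lower in 3. Ephb2 was at 150, 128 and 161 CPM in the lower libraries and 242, 164 and 241 CPM in the higher ones, and the groups did not overlap. The ligand Efna5 was at 11.4, 12.7 and 20.7 CPM against 8.15, 5.36 and 4.30 CPM. Of 18 cadherins and protocadherins 7 were lower in all 3 pairs and 2 higher, with a median of -0.20.

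The vessel genes differed in direction between the genotypes. In knockout libraries all 9 tested endothelial genes of 10 and all 7 pericyte genes were lower in the higher library of all 3 pairs. The endothelial median was -0.65 and the pericyte median -0.77 on the log2 scale. By pair, the endothelial median was -0.43, -0.57 and -0.92 in knockout pairs 1, 2 and 3 and 0.05, 0.68 and 0.73 in control pairs 4, 5 and 6, so control pair 4, whose libraries held transcripts of both sexes, was close to 0. In control libraries the medians were 0.50 and 0.31, with 8 of 9 and 6 of 7 genes higher in all 3 pairs and 1 of each list called higher. The difference between the genotypes was tested with edgeR as the interaction of genotype and rank over all 12 libraries. Over 17733 genes that test called 1 gene (0.00564%), with 850 at an unadjusted p under 0.05 (4.79%), and DESeq2 called 47.

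The 1 gene called was Rgs5 (chromosome 1, 169483070 to 169523382), a regulator of G protein signalling that marks pericytes. It was at 47.1, 79.8 and 44.2 CPM in the lower knockout libraries and at 29.3, 49.4 and 24.4 CPM in the higher ones. In the controls it was at 42.6, 31.3 and 42.1 CPM in the lower libraries and at 52.3, 43.0 and 51.6 CPM in the higher ones. Each knockout pair went down and each control pair went up. The log2 fold change was -0.75 ± 0.07 in knockout and 0.34 ± 0.06 in control, and the difference was -1.08 ± 0.09 (edgeR adjusted p = 0.0098). Without pair 3, 4, 5 or 6 that adjusted p was 0.11, 0.127, 0.193 and 0.0938, with differences between -1.10 and -1.03, so the call rests on all 12 libraries or on leaving out pair 1 or 2 only.

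The other vessel genes, all 9 endothelial genes and the 6 pericyte genes beside Rgs5, had an unadjusted p under 0.05 in the interaction test but were not called. Abcc9, a channel subunit of pericytes, was at 18.5, 39.0 and 23.8 CPM in the lower knockout libraries and 10.1, 22.6 and 13.8 CPM in the higher ones. Its difference between genotypes was -1.01 ± 0.13 (adjusted p = 0.0883). Flt1, a receptor for vascular endothelial growth factor, was at 26.7, 30.2 and 24.2 CPM against 19.7, 18.1 and 11.1 CPM, with a difference of -1.10 ± 0.21 (adjusted p = 0.263). Lama4, a laminin chain of vessel basement membrane, was at 21.8, 29.6 and 19.5 CPM against 12.6, 17.5 and 10.9 CPM, with a difference of -0.96 ± 0.14 (adjusted p = 0.119).

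The summed level of the 10 listed endothelial genes was 190, 234 and 167 CPM in the lower knockout libraries and 150, 167 and 96.3 CPM in the higher ones. In controls it was 186, 113 and 159 CPM in the lower libraries and 201, 172 and 244 CPM in the higher ones. The lowest knockout value lay below all control values, and the others lay within the control range. In pair 2 the lower library also held more mitochondrial RNA, a higher sum of microglia genes (267 against 184 CPM) and of pericyte genes (199 against 123 CPM). The erythroid genes summed to 12377 CPM in that library and 8211 CPM in its partner, against 4240 to 4822 CPM in the other knockout libraries. Without pair 2 the knockout medians were -0.63 for endothelial and -0.76 for pericyte genes, and 8 of 9 and 5 of 7 genes had an unadjusted p under 0.05. How many vessel cells were dissected with each library was not tested.

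Other lists also had negative differences between the genotypes. Over all genes the median difference was 0.0096. At an unadjusted p under 0.05 there were 579 negative and 271 positive. All 13 mitochondrially encoded genes, all 8 erythroid genes and 16 of 18 cell cycle genes had negative differences, 0 of them at that p. Of 10 immature neuron genes 1 was negative. Counts of negative differences alone are thus not particular to 1 cell type. All 10 microglia genes had a negative fold change in knockout (median -0.23) and the control median was 0.23. All 10 differences between the genotypes were negative, 7 of 10 had an unadjusted p under 0.05, and none was called (smallest edgeR adjusted p = 0.707). The knockout value came mostly from pair 2, with medians of -0.17, -0.58 and 0.10 in pairs 1, 2 and 3, and without pair 2 the list median was -0.0050. Of the astrocyte genes all 10 differences were negative, with 3 at an unadjusted p under 0.05, and of 14 radial glia genes 13 were negative, with 3 at that p. None of these was called.

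**Figure D3:**
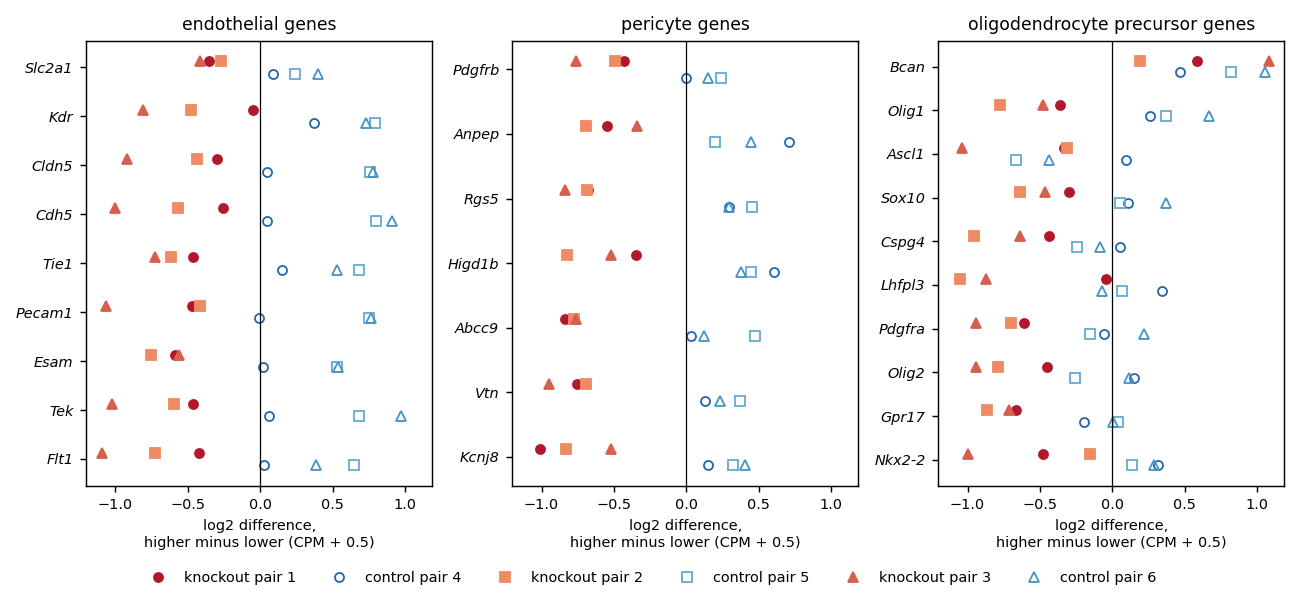
Log2 difference, higher minus lower library (CPM + 0.5), for each endothelial, pericyte and oligodendrocyte precursor gene tested, with filled red marks for knockout pairs and open blue marks for control pairs. For the 9 endothelial and 7 pericyte genes each knockout mark lies left of 0, and Bcan is the 1 precursor gene right of 0 in the 3 knockout pairs.

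Oligodendrocyte precursors arise from ventral and later from cortical progenitors, and Egfr signalling is known to promote their formation. Of 10 precursor genes 9 were lower in the higher library of all 3 knockout pairs and 1 was higher, with a median of -0.72. The median was -0.62 without pair 2, where 0 of 10 were called. Pdgfra, the receptor that defines these cells, was at 31.6, 33.6 and 27.9 CPM in the lower libraries and 20.6, 20.5 and 14.3 CPM in the higher ones. The groups did not overlap, and the log2 fold change was -0.76 ± 0.09 (edgeR adjusted p = 0.133). In controls it was at 25.2, 28.2 and 35.0 CPM against 24.1, 25.3 and 40.7 CPM, a fold change of -0.01 ± 0.08. Pdgfra is also made by some meningeal fibroblasts. The 10 listed meningeal genes, 7 of them tested, summed to 12.1 to 23.4 CPM in the knockout libraries. In the control libraries the sum was 10.7 to 54.1 CPM. The highest control sum was in the library titled caudal 9, which also had the highest Pdgfra. The meningeal median was -0.13 in knockout and 1.08 in control, 6 of 7 differences between the genotypes were negative and none was called. The part of these cells in the Pdgfra values was not tested.

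Olig1, a factor of the oligodendrocyte lineage, was at 14.03, 17.5 and 10.6 CPM in the lower knockout libraries and 10.8, 10.005 and 7.42 CPM in the higher ones. In controls it was at 23.1, 21.9 and 27.4 CPM against 27.7, 28.3 and 43.7 CPM. The difference between the genotypes was -0.99 ± 0.16 (adjusted p = 0.177). All 10 differences were negative, 7 had an unadjusted p under 0.05 and none was called. Bcan, a proteoglycan that astrocytes also make, was the member that was higher, with a log2 fold change of 0.62 ± 0.19 in knockout and 0.78 ± 0.11 in control.

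Astrocyte genes were divided. Aldh1l1, a folate enzyme of astrocytes and radial glia, was at 62.1, 73.8 and 75.5 CPM in the lower libraries and 32.0, 43.0 and 31.3 CPM in the higher ones, and the groups were far apart (log2 fold change -1.003 ± 0.10, edgeR adjusted p = 0.133). In controls it fell by 0.69 ± 0.10 (adjusted p = 0.00398). Gfap, the intermediate filament of astrocytes and of radial glia near the hem, was at 5.75, 7.71 and 2.44 CPM against 17.1, 12.7 and 7.69 CPM. Of 10 tested astrocyte genes 3 were higher in all 3 pairs and 5 lower.

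Ranked by p were only named autosomal genes of at least 2 CPM with the same sign in the 3 pairs and groups that did not overlap. Rgs5 and Abcc9, whose groups overlapped, were therefore not ranked. Beside those above, the 12 genes with the smallest p in each direction were Nhlh1, Klhl35, Dyrk2, Rnf182, Aox4, Crim1, Cadps, Cxcr4, Prmt8 and Schip1 among those higher, and Lipg, Abhd4, A2m, Itga1, Nwd1, Sparcl1, Notch3 and Frem2 among those lower. None was called. In each of them the 3 higher libraries lay on 1 side of the 3 lower ones, which the choice of these genes required. Klhl35 had a log2 fold change of 1.25 ± 0.16 in knockout and 1.51 in control (adjusted p = 0.00178). Cxcr4, the chemokine receptor of migrating interneurons and precursors, was at 31.7, 28.8 and 24.7 CPM in the lower libraries and 51.6, 49.5 and 33.4 CPM in the higher ones. The list of 18 GABAergic interneuron genes went the other way. Its median was -0.53, with 7 genes lower and 1 higher in all 3 pairs. Lipg, endothelial lipase, was at 21.7, 21.8 and 24.6 CPM against 10.8, 11.8 and 12.1 CPM, with a log2 fold change of -0.98 ± 0.09 in knockout and -0.78 ± 0.11 in control (adjusted p = 0.00203). A2m had the widest change of the 24, at 5.51, 8.82 and 10.1 CPM against 1.40, 3.32 and 1.80 CPM.

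**Figure D4:**
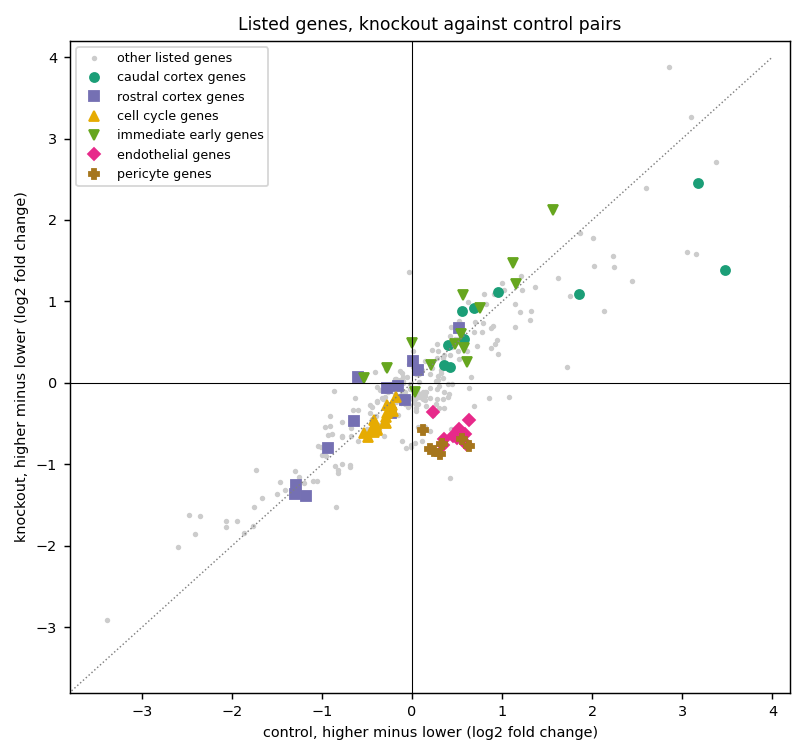
Log2 fold change, higher minus lower library, in control pairs (horizontal) and knockout pairs (vertical) for the listed genes, with 6 lists marked and the dotted line at equal values. Caudal cortex and most immediate early genes lie at the upper right and cell cycle genes at the lower left, while the 9 endothelial and 7 pericyte genes lie at the lower right.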

How the data were processed

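Polyadenylated RNA of 12 libraries was sequenced as paired reads, per the labels' protocols. Per the submitters' processing notes, the authors used STAR 2.7.8a, GRCm39 and featureCounts 2.0.3. Per the file headers, the deposited values are estimated counts (expected counts) for 55357 genes of GENCODE vM28, on the reverse strand, with multiple mapping and overlapping reads counted in fractions. Counts of near-identical copies are therefore uncertain.

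Rounded counts were analysed with edgeR 4.0.16 under R 4.3.3 (TMM, filterByExpr, robust quasi-likelihood F test, Benjamini-Hochberg adjusted p under 0.05), with the pair as a block. Levels are counts over the library total, times 1e+06. SEs were taken as the absolute log2 fold change divided by sqrt(F). Pair differences use log2(CPM + 0.5). The edgeR fit was also run on simulated counts, with the same spread for every gene and no differences between pairs. These data differ in both, so that run does not show how the test performs here. The members, pairs and 31 gene lists were chosen with earlier results of these data known. Genes named are list members and 12 genes per direction with the smallest p, at least 2 CPM, the same sign in 3 pairs and groups that do not overlap. Titles number the embryos, but what neighbouring libraries share is not given, so p-values measure only the spread between these samples, which may be technical. Alternatives were DESeq2 1.42.0, its size factors, limma-voom (limma 3.58.1), no filter, no mitochondrial genes, other blocks, all 12 libraries, and each pair or titled replicate left out.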

Additional observations from a re-analysis of the deposited data

Results flagged for a closer look

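Rgs5, the pericyte gene, moved in opposite directions in the 2 genotypes when libraries were ranked by Nr2f1 within pairs. The difference between the genotypes in its log2 fold change was -1.08 (edgeR interaction test, adjusted p = 0.0098), with 3 of 3 knockout pairs lower and 3 of 3 control pairs higher. With the titled embryo number as a block it was -1.07 with an adjusted p of 0.9999, and DESeq2 gave -1.08 with an adjusted p of 4.77e-09.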

How the results depend on the processing

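Within knockout pairs, where edgeR called 0 genes, DESeq2's Wald test called 387, no filter on low counts 497 and all 12 libraries in 1 fit 324. Leaving out 1 pair gave 0 to 304 genes. Nr2f1 was not left out of the counts in this section, and it is 1 of the 304. The titled comparison, with 0 calls, gave 72 with DESeq2, 1 without a filter and 0 to 33 with 1 titled replicate left out. The 2363 control calls became 1555 with DESeq2, 404 with no pair block and 133 with the titled embryo number as a replicate block, and 531 to 2660 with 1 pair left out. The interaction, with 1 call, gave 47 with DESeq2, 46 without a filter, 0 with the replicate block by titled embryo number, and 0 to 10 with 1 pair left out. The block by titled embryo number left the knockout and titled counts at 0. Libraries of 1 titled embryo deviated from their titled group means with correlations of -0.44, -0.45 and -0.60 over 11149 genes (embryos 5, 2 and 7). Each titled group mixes higher and lower ranks by Nr2f1, so these deviations also hold the differences that go with Nr2f1. Sex-linked transcripts did not match between partners by title in knockout embryos 5 and 2 and in control embryos 1, 3 and 9. The block by titled embryo number thus joined libraries that differed in these transcripts. Whether partners by title came from 1 embryo was not tested beyond them. With 1 pair left out, the log2 fold change ran from -0.221 to 0.0479 for Slc4a1, from -0.379 to 0.122 for Hbb-bs and from -0.188 to 0.502 for Eomes, each reversed only without pair 2. None of these was called, and the cause was not tested. Leaving out pair 2, with its high mitochondrial share, or pair 4, with transcripts of both sexes, was also set down after the data were seen. Of the list medians under other settings, 338 moved by less than the spread between pairs and 2 by more, those of hippocampal genes (1.12 without pair 2) and of subplate genes (0.32 without pair 1). Of 55357 genes listed, 17033 had counts high enough to be tested in the knockout libraries, so genes at lower levels are not covered.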
